A study of Mus musculus with 15 samples.

Results

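The 6 genes described here encode surface proteins by which mesenchymal stem cells (MSCs) are commonly recognised in culture and in tissue: Nt5e (CD73), Thy1 (CD90), Cd44, Alcam (CD166), Ly6a (Sca-1) and Lepr (the leptin receptor). They are picked out by their gene symbols, a rule that uses no measured value, from 18929 genes in the deposited table, and all 6 passed the filter on low counts that left 15369 genes. RNA-seq was made from skin of wild-type (WT) male balb/c mice, 4–6 weeks old when full-thickness wounds were cut into the back, and the 15 samples fell into 5 groups of 3. The acellular groups received Matrigel microspheres without cells in wounds of 10 mm or 15 mm, the HDB (high cell density bead) groups received microspheres densely loaded with MSCs and spaced by cell-free ones in wounds of the same sizes, and the normal group was unwounded skin. The implanted cells were human umbilical cord MSCs of passages 3–10, whereas the counts are of mouse genes, so a human transcript could enter them only where its reads matched a mouse gene, and how far this happened was not tested. Skin was taken after 4 weeks of implantation according to the sequencing methods, while the wound experiment is described as ending on day 21. The sources used here do not say whether the 3 samples of a group came from different animals, so p-values measure the spread between these samples.

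None of these proteins is restricted to MSCs. CD73 is an ectoenzyme that turns extracellular AMP into adenosine, CD90 is a GPI-anchored glycoprotein of fibroblasts and, in the mouse, of T cells, and CD44 is the main receptor for hyaluronan, carried by keratinocytes, fibroblasts and leukocytes. CD166 is an adhesion molecule that binds itself and the T cell protein CD6, Sca-1 is a GPI-anchored member of the Ly6 family found on mouse stromal progenitors, dermal fibroblasts and endothelium, and the leptin receptor marks stromal cells of bone marrow and signals through JAK2 and STAT3. In whole skin, a lower level can come from fewer cells carrying a transcript or from less of it per cell, and the 2 cannot be told apart in these data.

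Cd44 rose in 4 and Alcam in 3 of the 4 wound groups against normal skin, while Ly6a and Nt5e fell in 2 groups each, Lepr fell in 1 and Thy1 was called in no comparison. A gene was called where edgeR's quasi-likelihood test gave a Benjamini-Hochberg adjusted p under 0.05. Against normal skin, 4 of the 6 genes were called in acellular 10 mm wounds, where 20.3% of all genes tested were called, and 4 of 6 in acellular 15 mm wounds, where 30.2% were. In HDB 10 mm wounds 2 of 6 were called beside 12.3% of all genes, and in HDB 15 mm wounds 2 of 6 beside 5.18%. DESeq2, run as an alternative, called 4, 4, 3 and 4 of the 6 in the same order, beside 33.0%, 40.3%, 24.8% and 18.7% of the genes to which it gave an adjusted p. No member but Cd44 was called in all 4 wound groups, and 2.86% of all genes were called in 1 direction in all 4. Between HDB and acellular wounds, 0 of 6 were called by edgeR at either size, beside 0.00% of all genes at 10 mm and 2.93% at 15 mm, while DESeq2 called 3 of 6 at 15 mm beside 14.7% of all genes. The 4 comparisons with normal skin share the same 3 normal samples and are therefore not independent of each other.

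**Figure D1:**
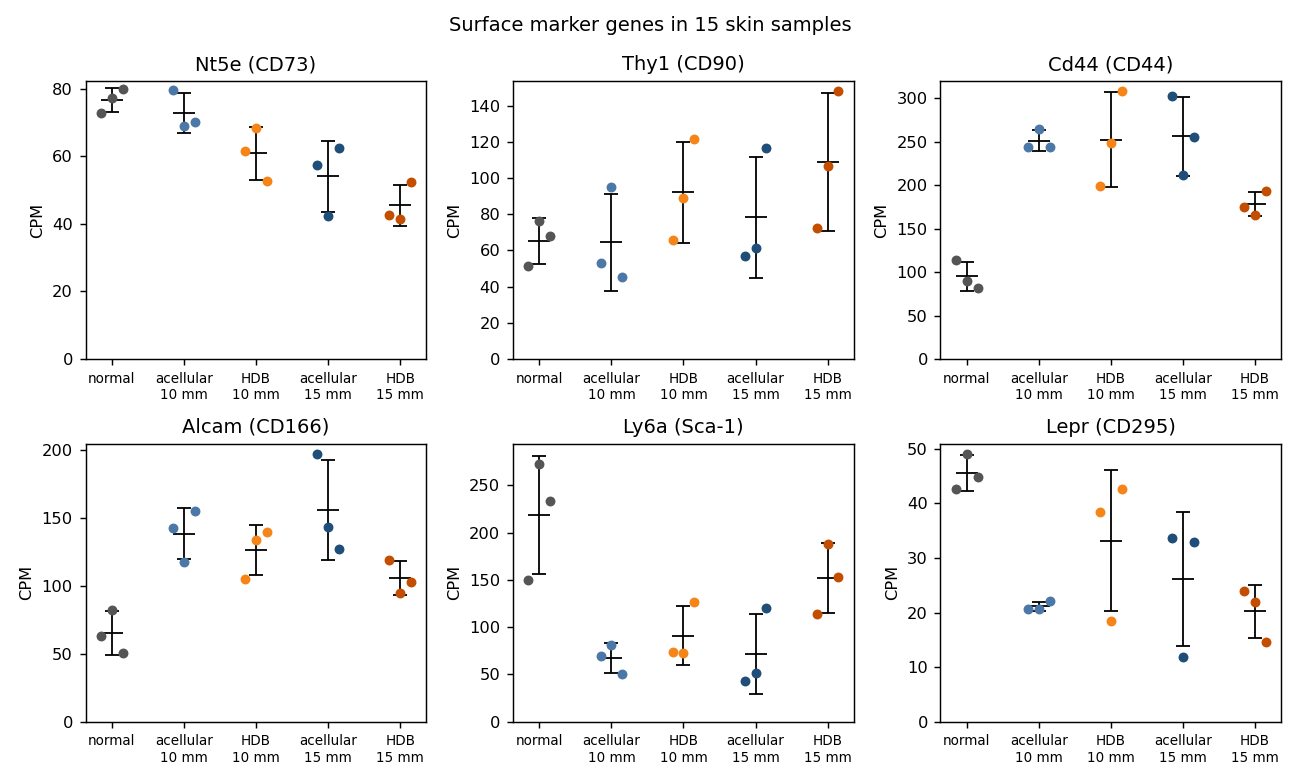
Level of each gene in CPM (counts scaled to library size, linear axis from 0) in the 15 skin samples, by group; points are samples, and the black bars are the group mean ± SD (n = 3). All 12 wound samples lay above the 3 normal samples for Cd44 and Alcam, and the normal samples were highest for Lepr.

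Total counts ran from 15840551 to 18404188 per sample. Some libraries stood apart within their group in markers of other cells. In acellular 15 mm wounds, the summed level of 10 dermal fibroblast genes was 15390 CPM in replicate 3 but 3631 and 4145 CPM in replicates 1 and 2, and a list of hair shaft and root sheath keratins and regulators summed to 20639 CPM in replicate 1, 1698 in replicate 2 and 42.8 in replicate 3. In normal skin the hair list summed to at most 12.3 CPM. Keratin genes of the skin's own epithelium were plentiful in every sample, with a keratinocyte list sum of 6847 to 21856 CPM. For the 6 genes, each call is therefore given with its value when a library was left out, where that changed it. Of 153 calls of companion genes against normal skin (a gene in a wound group), 105 were lost in at least 1 fit that left out a sample, and 0 changed direction in any alternative.

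In CPM (counts per 1000000 of the TMM-scaled library) and per kilobase of the longest transcript, so that genes can be set beside each other, Ly6a was the most abundant of the 6 in every group (70.4 CPM per kb in acellular 10 mm wounds to 229 in normal skin) and Lepr the least (3.65 in HDB 15 mm wounds to 8.22 in normal skin). Thy1 ranged from 37.2 to 62.8 CPM per kb, Cd44 from 16.9 to 45.7, Alcam from 10.8 to 25.8 and Nt5e from 11.4 to 19.2. All 6 were thus present in normal skin and in wounds that had received no cells.

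Cd44 (Entrez 12505, chr2:102811141-102901669 on the minus strand of GRCm38.p6) rose in every wound group. Its normal samples had 114, 89.9 and 81.6 CPM. Acellular 10 mm samples had 244, 265 and 244 CPM, and acellular 15 mm samples 303, 212 and 255 CPM. The HDB samples had 199, 249 and 308 CPM at 10 mm and 175, 166 and 193 CPM at 15 mm. No wound sample reached down to the highest normal one, a separation that 9.86% of all genes showed in the same direction. By edgeR's quasi-likelihood test, Cd44 was 2.64-fold higher than in normal skin in acellular 10 mm wounds (log2 1.40 ± 0.18 SE, adjusted p = 0.00293) and 2.69-fold higher in acellular 15 mm wounds (log2 1.43 ± 0.18, adjusted p = 0.00204). It was 2.65-fold higher in HDB 10 mm wounds (log2 1.41 ± 0.18, adjusted p = 0.00271) and 1.87-fold higher in HDB 15 mm wounds (log2 0.90 ± 0.18, adjusted p = 0.0254). In order of mean level, acellular 15 mm (256 CPM), HDB 10 mm (252) and acellular 10 mm (251) overlapped, HDB 15 mm (178 ± 13.7 SD) lay apart below acellular 10 mm, and normal skin (95.2 ± 16.8) lay apart below that. The call in HDB 15 mm wounds was lost without HDB replicate 1 (log2 0.92) or 3 (0.84) and without normal replicate 1 (1.06), 2 (0.87) or 3 (0.81), with adjusted p between 0.0663 and 0.124. The other 3 calls held in every alternative run.

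Alcam (Entrez 11658, chr16:52248996-52453081, minus strand) was also higher in wounds. It was measured at 62.7, 82.3 and 50.2 CPM in normal skin. Acellular samples had 142, 118 and 155 CPM at 10 mm and 197, 143 and 127 CPM at 15 mm. HDB samples had 105, 134 and 140 CPM at 10 mm and 119, 94.5 and 103 CPM at 15 mm. All 12 wound samples again exceeded the 3 normal ones. In acellular 10 mm wounds it was 2.13-fold higher than in normal skin (log2 1.09 ± 0.21, edgeR adjusted p = 0.00844), and in acellular 15 mm wounds 2.39-fold (log2 1.26 ± 0.21, edgeR adjusted p = 0.00358). It was 1.94-fold higher in HDB 10 mm wounds (log2 0.95 ± 0.21, edgeR adjusted p = 0.0189). In HDB 15 mm wounds the value was 1.62-fold (log2 0.70 ± 0.21) and did not pass (edgeR adjusted p = 0.0667), although DESeq2, a fit of these groups alone and removal of the transcript length trend each called it. By mean level, acellular 15 mm (156 CPM), acellular 10 mm (138), HDB 10 mm (126) and HDB 15 mm (105) each overlapped the next, and normal skin (65.1) lay apart below. The HDB 10 mm call was lost without HDB replicate 2 (log2 0.92) or 3 (0.88) and without normal replicate 1 (0.94) or 3 (0.81), while both acellular calls held in every alternative. Over the 15 samples Cd44 and Alcam had a Pearson correlation of log2 CPM of 0.90, and of 0.45 once group means were removed; as a description, the samples share their groups and their tissue composition.

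The promoters of Cd44 and Alcam are printed because these genes moved together. Each window runs from 250 bases before to 50 bases after the transcript start (RefSeq, GRCm38.p6), 5′ to 3′ on the gene's strand, and capitals mark matches on either strand to the GC box (GGGCGG) or the CCAAT box (CCAAT). The Cd44 window is chr2:102901616-102901915 and the Alcam window chr16:52453032-52453331.
Cd44: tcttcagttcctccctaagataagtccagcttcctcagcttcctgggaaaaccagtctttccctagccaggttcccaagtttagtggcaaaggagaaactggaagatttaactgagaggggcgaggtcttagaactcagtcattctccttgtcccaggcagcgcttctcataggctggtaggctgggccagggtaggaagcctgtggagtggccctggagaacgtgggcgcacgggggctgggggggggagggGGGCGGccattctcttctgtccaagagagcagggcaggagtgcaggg
Alcam: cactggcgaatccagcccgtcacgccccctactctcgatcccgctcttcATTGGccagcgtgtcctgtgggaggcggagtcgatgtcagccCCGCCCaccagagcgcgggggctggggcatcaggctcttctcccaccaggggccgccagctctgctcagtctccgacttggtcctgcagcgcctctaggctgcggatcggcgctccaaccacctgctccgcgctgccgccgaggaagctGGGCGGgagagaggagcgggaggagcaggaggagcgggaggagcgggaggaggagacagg
Cd44 held 1 GC box and no CCAAT box, and Alcam held 2 GC boxes and 1 CCAAT box. Among 32851 promoter windows of this length, 35.7% held a GC box and 37.4% a CCAAT box. Neither window held the AP-1 letters TGANTCA, found in 7.81% of windows, or the TATA box TATAAA, found in 13.6%. The Cd44 window was 58.0% and the Alcam window 69.7% G or C. A match is a match of letters and not a measured binding site.

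The partners of CD44 in hyaluronan binding and turnover were read from a list of 14 tested genes. Against normal skin, 3 of them were called higher in acellular 10 mm wounds, 5 in acellular 15 mm wounds and 2 in each HDB group, and none was called lower. Over all genes 20.3%, 30.2%, 12.3% and 5.18% were called in acellular 10 mm, acellular 15 mm, HDB 10 mm and HDB 15 mm wounds. Cemip, which encodes a protein that degrades hyaluronan, was called in all 4, with log2 fold changes of 2.63, 3.41, 3.57 and 3.11 in acellular 10 mm, acellular 15 mm, HDB 10 mm and HDB 15 mm wounds (edgeR adjusted p = 0.00673, 0.00239, 0.00371 and 0.01). Its level stayed low, at 0.469–0.872 CPM in normal skin and 3.15–10.9 CPM in the wounds. Hmmr, a hyaluronan receptor also used in cell division, was called in 3 groups (log2 2.27, 2.76 and 2.31) and stood at 1.53 in HDB 15 mm wounds (edgeR adjusted p = 0.0824). Ezr, which links CD44 and CD166 to actin, was called in both acellular groups (log2 0.89 and 0.87). Mmp14, the protease with the highest level of this list, was called in HDB 15 mm wounds (log2 1.52, edgeR adjusted p = 0.048). The hyaluronan synthases Has1, Has2 and Has3 were called in no wound group, their values running from -0.58 to 2.16. The list's median log2 fold change was 0.27, 0.61, 0.62 and 0.60 in acellular 10 mm, acellular 15 mm, HDB 10 mm and HDB 15 mm wounds, beside 0.02 to 0.06 over all genes.

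**Figure D2:**
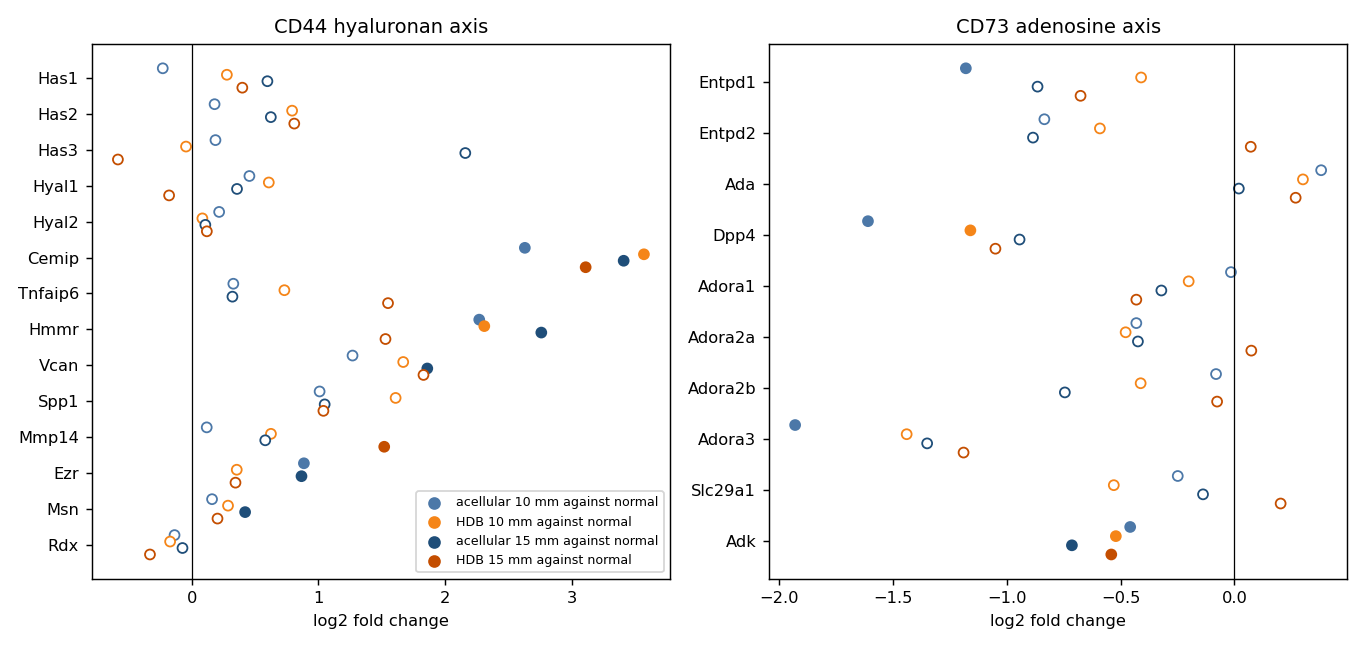
Log2 fold change against normal skin for the tested genes of the CD44 hyaluronan list (left) and the CD73 adenosine list (right) in the 4 wound groups; filled points were called by edgeR (adjusted p under 0.05) and open points were not. Cemip lies between 2.63 and 3.57 in all groups, and Adk lies below 0 and is called in all groups.

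Of the 5 CD166 partners, Ezr was the sole gene called in the acellular groups, and none was called in the HDB groups, where 1 had an unadjusted p under 0.05 and DESeq2 called 1 in each. All genes were called at 20.3%, 30.2%, 12.3% and 5.18% in acellular 10 mm, acellular 15 mm, HDB 10 mm and HDB 15 mm wounds. Cd6, the CD166 ligand of T cells, averaged 0.951 CPM over all samples. Sdcbp, the most abundant partner, had log2 fold changes of 0.00 to 0.43 against normal skin. Keratinocyte genes moved alongside in part: 3 of 8 were called higher in acellular 10 mm wounds, 2 higher and 1 lower in acellular 15 mm, 1 higher in HDB 10 mm and 0 in HDB 15 mm (5 by unadjusted p, 2 by DESeq2, counted in either direction). The hair list was called higher in 6, 13, 0 and 1 of 13 genes in the same order, with 13, 13, 1 and 13 at an unadjusted p under 0.05 and 13, 13, 3 and 12 called by DESeq2. Its median log2 fold change was 8.57, 12.2, 2.56 and 7.70. Their part in the Cd44 and Alcam values was not tested.

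Ly6a (Entrez 110454, chr15:74994877-74998031, minus strand) was lower in acellular wounds. Normal skin had 150, 273 and 234 CPM. Acellular samples had 69.6, 81.5 and 50.7 CPM at 10 mm and 43.5, 51.3 and 121 CPM at 15 mm. HDB samples had 73.4, 72.6 and 127 CPM at 10 mm and 114, 188 and 153 CPM at 15 mm. Acellular and HDB 10 mm samples all lay below normal skin, whereas HDB 15 mm overlapped it. How many of all genes separate in this way in a single wound group was not counted. In acellular 10 mm wounds Ly6a was 3.25-fold lower than in normal skin (log2 -1.70 ± 0.39, edgeR adjusted p = 0.0145), and in acellular 15 mm wounds 3.05-fold lower (log2 -1.61 ± 0.39, edgeR adjusted p = 0.0119). In HDB 10 mm wounds the value was -1.27 ± 0.39 and just missed the threshold (edgeR adjusted p = 0.0509; 0.00643 by DESeq2). In HDB 15 mm wounds it was -0.53 ± 0.38 (edgeR adjusted p = 0.393). By mean level the order was normal (219 CPM), HDB 15 mm (152), HDB 10 mm (91.0), acellular 15 mm (71.8) and acellular 10 mm (67.3), and each neighbour in it overlapped the next. The acellular 10 mm call was lost without acellular replicate 1 (log2 -1.73) and without normal replicate 2 (-1.53) or 3 (-1.66). The acellular 15 mm call was lost when those groups were fitted alone (-1.56), and without acellular replicate 3, the highest of its group, the value was -2.21.

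All 10 endothelial markers were called lower than in normal skin in both acellular groups, 7 in HDB 10 mm wounds and 0 in HDB 15 mm wounds (6 by unadjusted p, 5 by DESeq2). Their summed level was 723–821 CPM in normal skin, 134–279 in acellular 10 mm, 200–336 in HDB 10 mm, 197–365 in acellular 15 mm and 258–563 in HDB 15 mm wounds, with no marker at 0. Of 10 dermal fibroblast genes, 6, 2, 1 and 0 were called lower in acellular 10 mm, acellular 15 mm, HDB 10 mm and HDB 15 mm wounds, beside 20.3%, 30.2%, 12.3% and 5.18% of all genes called in either direction (in the last, 2 by unadjusted p and 2 by DESeq2, counted in either direction). The fibroblast sum was 7852–25361 CPM in normal skin, 3670–5726 and 3631–15390 in acellular 10 mm and 15 mm wounds, and 9376–12424 and 8694–19086 in HDB 10 mm and 15 mm wounds. Of 13542 genes searched, those most like Ly6a over the 15 samples were Ecscr (r = 0.96), an endothelial gene, Dcn (0.96), the fibroblast proteoglycan decorin, and C1qc (0.95), a complement gene of macrophages; within groups the correlations were 0.88, 0.90 and 0.89. The part of these cells in the Ly6a values was not tested.

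**Figure D3:**
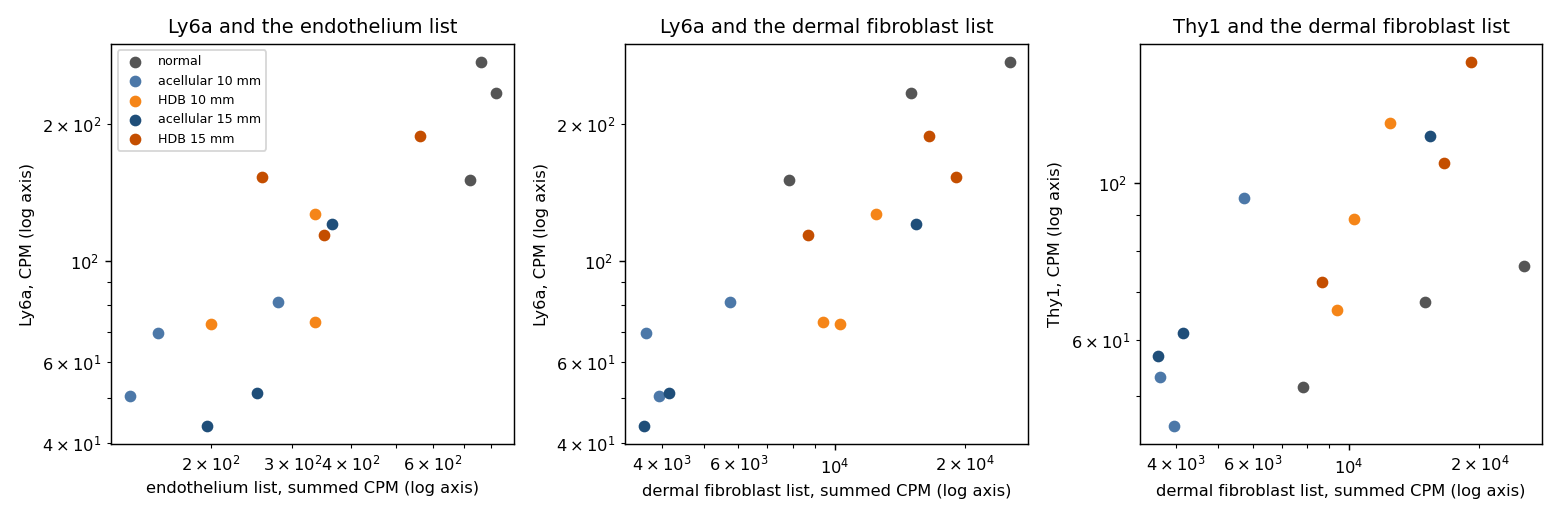
Ly6a against the summed level of 10 endothelial genes (left) and of 10 dermal fibroblast genes (middle), and Thy1 against the fibroblast sum (right), in CPM with both axes logarithmic; each point is 1 of 15 samples, coloured by group. In the middle panel acellular samples have the lowest fibroblast sums except replicate 3 of the 15 mm group, which has 121 CPM of Ly6a and a fibroblast sum of 15390 CPM. In the left panel HDB 10 mm replicate 2, with 72.6 CPM of Ly6a and an endothelial sum of 200 CPM, lies among the acellular samples.

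Of 11 other genes of the Ly6 family tested, 3 were called lower in acellular 10 mm wounds, 4 lower and 2 higher in acellular 15 mm, 2 lower in HDB 10 mm and 0 in HDB 15 mm (4 by unadjusted p, 3 by DESeq2, counted in either direction). Over all genes 20.3%, 30.2%, 12.3% and 5.18% were called in these groups, in the same order. Ly6c1, expressed by endothelium and by monocytes, was called in the first 3 (log2 -2.30, -2.04 and -1.92) and stood at -0.99 in HDB 15 mm wounds. Its deposited counts were fractional in 15 of 15 samples, the sign of reads divided between similar genes, so its value is less certain. Gpihbp1, the capillary anchor of lipoprotein lipase, had -2.05, -2.16 and -2.22 in the same groups and -1.21 in HDB 15 mm wounds (edgeR adjusted p = 0.0624). The genes called higher in acellular 15 mm wounds were Ly6g6d (log2 7.11, with 0.743–94.8 CPM in those samples and 0.268–0.351 CPM in normal skin, and fractional counts in 4 samples) and Lypd3 (1.24). Ly6d, the most abundant of the list, was called in none of the 4. Ly6a itself had a fractional count in 1 sample.

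Thy1 (Entrez 21838, chr9:44043384-44048579, plus strand) was called nowhere, with group means highest in the HDB groups. Normal skin had 51.4, 76.2 and 67.7 CPM. Acellular samples had 53.1, 95.0 and 45.3 CPM at 10 mm and 57.0, 61.2 and 117 CPM at 15 mm. HDB samples had 66.0, 88.8 and 122 CPM at 10 mm and 72.3, 107 and 148 CPM at 15 mm. All 5 groups overlapped each neighbour in the order HDB 15 mm (109 CPM), HDB 10 mm (92.1), acellular 15 mm (78.3), normal (65.1) and acellular 10 mm (64.5). The largest value against normal skin was log2 0.74 ± 0.37 in HDB 15 mm wounds (edgeR adjusted p = 0.215). In acellular 15 mm wounds it was 0.27 ± 0.37 with replicate 3 and -0.14 without it.

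Thy1 varied within groups together with Ly6a: the correlation was 0.44 over the 15 samples and 0.84 after group means were removed. Its nearest gene was Mfap4, which encodes an elastic fibre protein (r = 0.95, 0.94 within groups), followed by Kcnd1 (0.93) and Arrb2 (0.91). In each of the 5 groups, the sample with the highest Thy1 also had the highest summed level of 3 of the 19 companion lists: dermal fibroblast genes, the partners of CD90 and the genes that MSCs should lack (leukocyte, antigen presentation and endothelial genes). The order of all 3 samples was that of Thy1 in 5 of 5 groups for the genes MSCs should lack, at 298.5 to 1891 CPM, and in 4 of 5 for the fibroblast genes. The part of these cells in the Thy1 values was not tested. T cell genes, another mouse source of Thy1, summed to 11.2–61.6 CPM, and 1 of 8, Cd5, was called, higher in HDB 10 mm wounds (log2 1.95, edgeR adjusted p = 0.0357). Of 9 integrins, syndecan and signalling partners of CD90, 2 were called higher and 2 lower in acellular 10 mm, 2 higher in acellular 15 mm, 1 higher and 1 lower in HDB 10 mm and 0 in HDB 15 mm wounds (2 by unadjusted p, 0 by DESeq2). The shares of all genes called were 20.3%, 30.2%, 12.3% and 5.18% in the same order. Among the partners, Itgav, the alpha chain of an integrin that binds CD90, was called higher in 3 groups (log2 0.39, 0.36 and 0.45) and Fyn, a kinase, lower in both 10 mm groups (-1.11 and -0.84). Sdc4, the most abundant, was higher in acellular 10 mm wounds (0.70).

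Nt5e (Entrez 23959, chr9:88327609-88372089, plus strand) was lower in the 15 mm wounds. Normal skin had 72.8, 77.3 and 79.9 CPM. Acellular samples had 79.6, 68.8 and 70.1 CPM at 10 mm and 57.5, 42.3 and 62.5 CPM at 15 mm. HDB samples had 61.7, 68.3 and 52.6 CPM at 10 mm and 42.7, 41.5 and 52.5 CPM at 15 mm. Every 15 mm sample and every HDB 10 mm sample lay below every normal one, while acellular 10 mm overlapped normal skin. The share of all genes separated in this way was not computed for single wound groups. Against normal skin it was 1.68-fold lower in HDB 15 mm wounds (log2 -0.75 ± 0.15, edgeR adjusted p = 0.0258) and 1.42-fold lower in acellular 15 mm wounds (-0.50 ± 0.15, edgeR adjusted p = 0.0278). It stood at -0.33 ± 0.15 in HDB 10 mm (edgeR adjusted p = 0.155) and -0.07 ± 0.15 in acellular 10 mm wounds. By mean level, normal (76.7 CPM) and acellular 10 mm (72.9) overlapped, HDB 10 mm (60.9) lay apart below, and HDB 10 mm, acellular 15 mm (54.1) and HDB 15 mm (45.5) overlapped in turn. The call of HDB 15 mm was lost without HDB replicate 1 (log2 -0.71) or 3 (-0.87) and without normal replicate 1 (-0.78), 2 (-0.74) or 3 (-0.71), and with the length trend removed with the replicate block (-0.74). That of acellular 15 mm was lost when only those groups were fitted (-0.47, edgeR adjusted p = 0.132), without acellular replicate 2 (-0.35) and without normal replicate 1 (-0.54), 2 (-0.50) or 3 (-0.47). The direction did not change in any of these.

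In the adenosine list of 10 genes, 4, 1, 2 and 1 were called lower in acellular 10 mm, acellular 15 mm, HDB 10 mm and HDB 15 mm wounds, and none higher, beside 20.3%, 30.2%, 12.3% and 5.18% of all genes called in either direction. In the same order 4, 4, 4 and 3 had an unadjusted p under 0.05, DESeq2 called 4, 4, 3 and 2, and the median log2 fold change was -0.44, -0.73, -0.50 and -0.25. Adk, the kinase that removes adenosine inside cells, was called in all 4 (log2 -0.46, -0.71, -0.52 and -0.54), with 85.1–102 CPM in normal skin and 54.2–77.8 in the wounds. Dpp4 (CD26) was called in both 10 mm groups (-1.61 acellular, -1.16 HDB). Entpd1 (CD39), which supplies CD73 with AMP, was lower in acellular 10 mm wounds (-1.18, edgeR adjusted p = 0.0334), as was the receptor Adora3 (-1.93, edgeR adjusted p = 0.0329). The transporter Slc29a1, the most abundant of the list, was not called. The genes most like Nt5e were Angel1 (r = 0.85), Zfp367 (0.81) and Zdhhc3 (0.81), with 0.34 to 0.49 within groups.

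Lepr (Entrez 16847, chr4:101717137-101815352, plus strand) had its highest levels in normal skin, at 42.7, 49.1 and 44.9 CPM. Acellular samples had 20.7, 20.7 and 22.0 CPM at 10 mm and 33.6, 11.9 and 33.0 CPM at 15 mm. HDB samples had 38.4, 18.5 and 42.6 CPM at 10 mm and 24.0, 22.0 and 14.7 CPM at 15 mm. All 12 wound samples lay below normal skin, as for 11.1% of all genes, but the highest of them (42.6 CPM) fell just short of the lowest normal sample (42.7 CPM). Lepr was called in acellular 10 mm wounds, 2.16-fold lower (log2 -1.11 ± 0.36, edgeR adjusted p = 0.0494). This call was lost when any of the 6 samples was left out, at log2 -1.16 to -1.06. Those samples were acellular replicates 1 (-1.09), 2 (-1.09) and 3 (-1.14) and normal replicates 1 (-1.16), 2 (-1.06) and 3 (-1.13). It was also lost with no filter on low counts (-1.10, edgeR adjusted p = 0.0566) and with the replicate block, alone (-1.12) or with the GC trend removed (-1.14). The values were -0.80 ± 0.36 in acellular 15 mm (edgeR adjusted p = 0.109), -0.46 ± 0.36 in HDB 10 mm (0.405 by the same test) and -1.17 ± 0.37 in HDB 15 mm wounds (edgeR adjusted p = 0.0747). The last was called by DESeq2 (-1.19, adjusted p = 0.0104) and by edgeR when only those groups were fitted (-1.16, adjusted p = 0.0127). Below normal skin (45.6 CPM), the means of HDB 10 mm (33.2), acellular 15 mm (26.2), acellular 10 mm (21.1) and HDB 15 mm (20.2) each overlapped the next.

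Of 8 tested genes of the leptin list, 1 was called higher and 2 lower in acellular 10 mm wounds, 2 higher in acellular 15 mm, 0 in HDB 10 mm (3 by unadjusted p, 2 by DESeq2) and 1 higher in HDB 15 mm. The shares of all genes called were 20.3%, 30.2%, 12.3% and 5.18% in the same order. Lep, the ligand, and Adipoq, the adipocyte hormone adiponectin and the most abundant of the list, were lower in acellular 10 mm wounds (log2 -3.99 and -2.94, edgeR adjusted p = 0.0113 and 0.0143). The adipocyte list, which holds both, was called lower in 9 of 9 genes there and in 0 of 9 in the other 3 wound groups, where 0, 7 and 0 genes had an unadjusted p under 0.05 and DESeq2 called 0, 5 and 0 in acellular 15 mm, HDB 10 mm and HDB 15 mm. Its sum was 498–1057 CPM in acellular 10 mm wounds and 3260–7626 CPM in normal skin, and its part in the Lepr value was not tested. Leprotl1, a relative of the protein that retains the receptor inside the cell, was higher in acellular 10 mm, acellular 15 mm and HDB 15 mm wounds (0.40, 0.35 and 0.44). Ptpn1, a phosphatase that limits leptin signalling, was higher in acellular 15 mm wounds (0.59). Jak2, Stat3 and Socs3 were called in none. The genes most like Lepr were Gm14308 (r = 0.84), Wdr62 (0.83) and Zbtb14 (0.83).

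**Figure D4:**
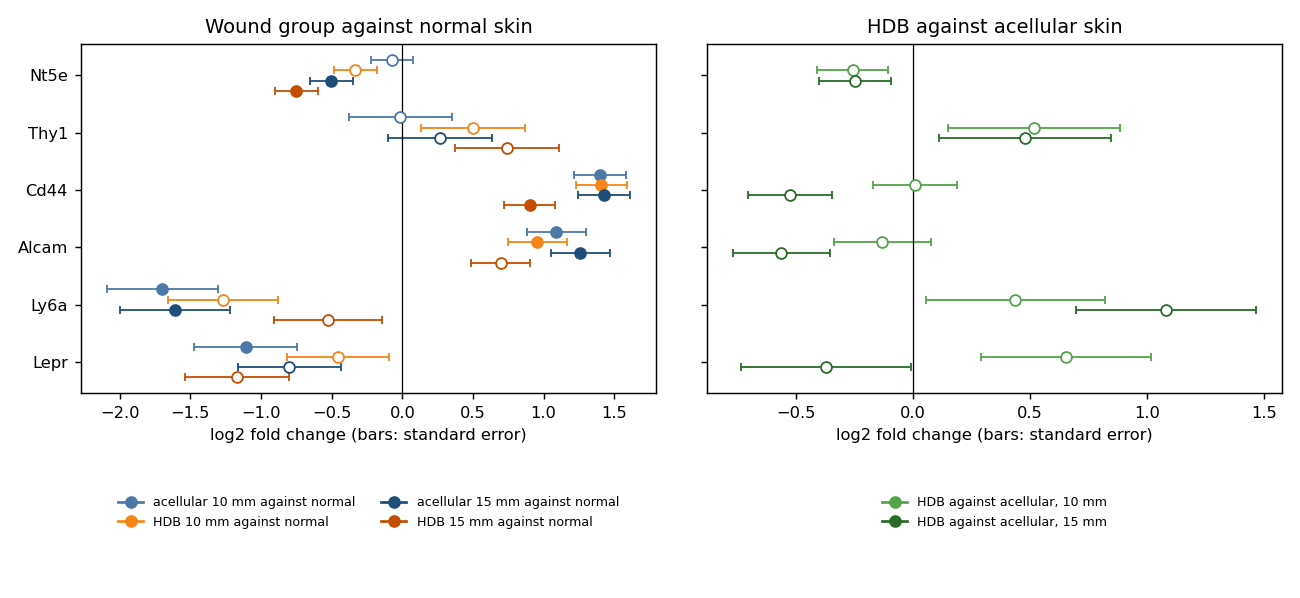
Log2 fold change ± SE of each gene for the 4 wound groups against normal skin (left) and for HDB against acellular wounds at each size (right); filled points were called by edgeR (adjusted p under 0.05), open points were not. Cd44 is filled in all 4 wound groups, and no point on the right is filled.

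The comparison of HDB with acellular wounds asks what MSC-laden beads changed relative to the bead material. At 10 mm, 0 of the 6 genes were called by edgeR, beside 0.00% of all genes, with 0 of 6 at an unadjusted p under 0.05 (3.53% of all genes) and 0 called by DESeq2 (0.111%). The values there were log2 0.65 ± 0.36 for Lepr, 0.52 ± 0.37 for Thy1, 0.44 ± 0.38 for Ly6a, 0.01 ± 0.18 for Cd44, -0.13 ± 0.21 for Alcam and -0.26 ± 0.15 for Nt5e. Leaving out samples in turn gave 0.43 to 0.96 for Lepr, 0.26 to 0.90 for Thy1 and 0.12 to 0.60 for Ly6a, each lowest without HDB replicate 3. The median log2 was 1.08 for the fibroblast, 1.33 for the adipocyte and -4.81 for the hair list. No gene of these lists was called by edgeR or DESeq2, and their part was not tested. Nt5e was the sole gene whose samples did not overlap, HDB being lower, beside 11.0% of all genes.

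At 15 mm, HDB wounds had higher Ly6a and lower Cd44 and Alcam than acellular wounds by values that did not pass the edgeR threshold. Ly6a was 2.11-fold higher (log2 1.08 ± 0.39, unadjusted p = 0.0155, edgeR adjusted p = 0.127), with 1 acellular sample inside the HDB range. Its value ran from 0.68 to 1.16 in the alternatives other than leaving out a sample, and from 0.82 to 1.68 when samples were left out in turn. Cd44 was 1.44-fold lower (-0.53 ± 0.18, edgeR adjusted p = 0.113) and Alcam 1.48-fold lower (-0.56 ± 0.21, edgeR adjusted p = 0.135), both without overlap between the groups, as for 20.3% of all genes. In the alternatives other than leaving out a sample, Cd44 ran from -0.537 to -0.314 and Alcam from -0.571 to -0.315. Leaving out samples in turn gave -0.648 to -0.39 for Cd44 and -0.691 to -0.358 for Alcam, both nearest 0 without acellular replicate 1. The hair list stood at a median log2 of -4.73 in this comparison, with 0 of 13 genes called by edgeR, 12 at an unadjusted p under 0.05 and 5 called by DESeq2. Acellular replicate 1, whose hair sum was 20639 CPM, had the highest Cd44 (303 CPM) and Alcam (197 CPM) of its group, and the part of hair in these values was not tested. Thus 0 of 6 were called beside 2.93% of all genes, and 3 of 6 had an unadjusted p under 0.05 beside 23.2%. DESeq2 called all 3, beside 14.7% of all genes, with adjusted p of 0.0367 for Ly6a, 0.0336 for Cd44 and 0.0465 for Alcam. Without acellular replicate 3, whose Ly6a was 121 CPM beside 43.5 and 51.3 CPM in the others, Ly6a was called by edgeR at log2 1.68. That fit called 2322 of 15552 genes, in place of 450 with all samples. With the replicate number as a block, 0 of 6 were called beside 179 genes in place of 450. Thy1 (0.48 ± 0.37), Lepr (-0.37 ± 0.36) and Nt5e (-0.25 ± 0.15) had unadjusted p of 0.216, 0.325 and 0.126. Between samples of the same number, HDB was higher in 3 of 3 pairs for Ly6a and Thy1, lower in 3 of 3 for Nt5e and lower in 2 of 3 for Lepr. For Cd44 and Alcam the groups did not overlap, so HDB is lower in 3 of 3 by any matching. The labels do not say what a number marks, and the share of all genes with 3 of 3 was not computed. With the block, Ly6a stood at 1.14 ± 0.34 (edgeR adjusted p = 0.107), Thy1 at 0.47 ± 0.29 (edgeR adjusted p = 0.364) and Nt5e at -0.24 ± 0.16 (edgeR adjusted p = 0.386). The fibroblast genes stood at a median log2 of 0.98 and the endothelial genes at 0.47 in this comparison, with 0 of 10 called in each (3 and 4 by unadjusted p, 2 and 1 by DESeq2); their part in the Ly6a value was not tested. Pag1, a membrane adaptor of the CD90 list, was called lower in HDB 15 mm wounds (log2 -1.09, edgeR adjusted p = 0.0349), at 18.3–19.1 CPM beside 27.1–60.3 in acellular wounds. This call was lost without HDB replicate 1 (-1.11), 2 (-1.08) or 3 (-1.08), with only those groups fitted (-1.10), with the replicate block (-1.05) and with the length trend removed (-0.72, and -0.68 with the block).

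**Figure D5:**
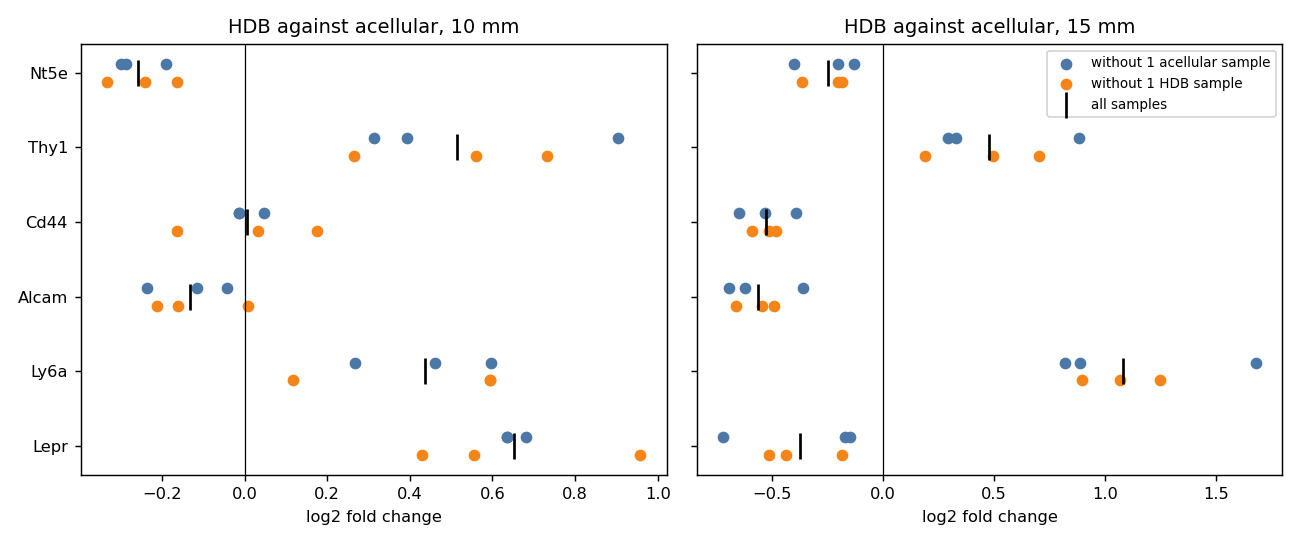
Log2 fold change of HDB against acellular wounds at 10 mm (left) and 15 mm (right) when each sample was left out in turn; black bars are the values with all samples, blue points leave out an acellular and orange points an HDB sample. At 15 mm Ly6a stays between 0.82 and 1.68, and its highest value is without acellular replicate 3.

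Over both sizes together, 0 of 6 were called by edgeR, beside 0.00% of all genes, with 3 of 6 at an unadjusted p under 0.05 (15.8% of all genes) and 0 called by DESeq2 (2.94%). Those 3 were Ly6a (log2 0.76 ± 0.27, edgeR adjusted p = 0.263), Alcam (-0.35 ± 0.15, edgeR adjusted p = 0.288) and Nt5e (-0.25 ± 0.11, edgeR adjusted p = 0.289). Without acellular 15 mm replicate 3, Ly6a was called (1.06, edgeR adjusted p = 0.0486), beside 229 of 15552 genes in that fit. In the same comparison the dermal fibroblast genes stood at a median log2 of 1.01 (10 of 10 at an unadjusted p under 0.05, 3 called by DESeq2) and the endothelial genes at 0.58 (6 of 10, 0 by DESeq2), with none called by edgeR, and their part in the Ly6a value was not tested. The hair list stood at -4.67 (13 of 13, 10 by DESeq2, 0 by edgeR), and its part in the Alcam value was not tested. Cd44 stood at -0.26 ± 0.13, Thy1 at 0.50 ± 0.26 and Lepr at 0.14 ± 0.26. A test of whether the HDB effect differed between sizes called 0 of 6 and 0.00% of all genes, with 0 of 6 at an unadjusted p under 0.05 (13.4% of all genes) and 0 by DESeq2 (6.55%). Lepr had the greatest difference (-1.02 ± 0.51, unadjusted p = 0.0685), followed by Ly6a (0.64 ± 0.54) and Cd44 (-0.53 ± 0.25, unadjusted p = 0.0566). In the alternatives other than leaving out a sample, Lepr ran from -1.06 to -0.623, Ly6a from 0.0748 to 0.811 and Cd44 from -0.565 to -0.256. When samples were left out in turn, the ranges were -1.37 to -0.8, 0.386 to 1.24 and -0.715 to -0.362.

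Between wound sizes, 0 of 6 were called in either treatment, beside 0.00% of all genes in each, and 0 by DESeq2, beside 6.98% in acellular and 3.67% in HDB wounds. Nt5e was lower at 15 mm than at 10 mm in acellular wounds (log2 -0.43 ± 0.15, unadjusted p = 0.0147) and by a similar amount in HDB wounds (-0.42 ± 0.15, unadjusted p = 0.0168), without overlap in either, as for 16.5% and 22.9% of all genes. In acellular wounds 1 of 6 thus had an unadjusted p under 0.05, beside 17.5% of all genes, and in HDB wounds 2 of 6 did, beside 12.3%. The other was Cd44, lower in HDB 15 mm than in HDB 10 mm wounds (-0.50 ± 0.18, unadjusted p = 0.0157, edgeR adjusted p = 0.3). Ly6a stood at 0.74 ± 0.38 in HDB and 0.09 ± 0.38 in acellular wounds.

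Further markers by which MSCs are defined were read from 2 lists. Of 16 other positive markers, 2 were called higher and 3 lower in acellular 10 mm wounds, 2 higher and 2 lower in acellular 15 mm, 1 higher and 1 lower in HDB 10 mm and 0 in HDB 15 mm (3 by unadjusted p, 1 by DESeq2). Beside them, 20.3%, 30.2%, 12.3% and 5.18% of all genes were called in these groups, in the same order. Eng (CD105), which endothelium also carries, was lower in the first 3 (log2 -1.62, -1.18 and -1.16) and stood at -0.80 in HDB 15 mm wounds. Cd248, a stromal and pericyte protein, and Mcam (CD146) were lower in acellular 10 mm wounds (-2.21 and -0.89), and Cd9, the most abundant of the list, was higher there (0.71). Of 7 tested genes that MSCs should lack, Cd34, carried by endothelium and dermal stroma, was called lower in the same 3 groups (-1.57, -1.47 and -1.40), and no other was called. In HDB 15 mm wounds 0 of the 7 were called, 0 had an unadjusted p under 0.05 and DESeq2 called 0. Between HDB and acellular wounds, 0 of the 16 positive and 0 of the 7 negative markers were called at either size, with 2 and 0 at an unadjusted p under 0.05 at 10 mm, 0 and 1 at 15 mm, and none called by DESeq2. Over both sizes, 6 of the 16 positive and 0 of the 7 negative markers had an unadjusted p under 0.05, beside 15.8% of all genes, and neither edgeR nor DESeq2 called any.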

How the data were processed

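Bulk RNA-seq of mouse skin was analysed in 15 samples, 3 in each of 5 groups. Values are estimated counts per gene, deposited by the authors in a single table without normalization. The submitters' processing notes name HISAT2 2.0.4, Bowtie2 2.2.5, RSEM 1.2.12 and the build GRCm38.p6, without their roles. Estimated counts that divide shared reads between similar genes can blur near-identical family members.

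Counts were rounded to whole numbers and fitted in R 4.3.3 with edgeR 4.0.16 (TMM normalization, filterByExpr, quasi-likelihood test, 5 group means over all samples), with Benjamini-Hochberg adjustment over the 15369 genes tested and a threshold of 0.05. Levels are TMM-scaled CPM (counts per 1000000). Correlations used log2 CPM with a prior count of 2. SE was the fold change over the square root of F. The scripts were tested on simulated data.

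The genes named are the 6 members, the 3 genes most like each, and from each of 19 companion lists the most abundant member, up to 3 called genes with the largest change, and pathway partners. The rule for the members uses gene symbols alone, but the members and the lists were proposed with earlier results of these data known. Lists are described by counts and medians without a set test.

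Alternatives were DESeq2 1.42.0 (the study's tool), relative log expression size factors, no filter, a mean of at least 50 counts, only the groups compared, a replicate block, removal of transcript length or GC trends with and without the block, and leaving out each sample. Same-number samples of acellular and HDB 15 mm wounds had deviations from the group means that correlated at 0.167 to 0.397 (mean 0.249). In no other pair of groups were all 3 above 0.1. Samples of different numbers could correlate more. Acellular 10 mm replicates 1, 2 and 3 did so at 0.372, 0.178 and 0.526 with HDB 10 mm replicates 2, 3 and 1. Nothing in the labels says what a number marks, so pairing by number is not shown. The replicate block was 1 effect shared by all 5 groups, so its 15 mm values also assume pairing in the other groups. Promoter windows came from RefSeq, which held entries for 4 of the 6 members (not Thy1 and Ly6a).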

Additional observations from a re-analysis of the deposited data

How the results depend on the processing

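Among the members' values, 944 alternatives kept direction and call, 33 lost a call, 14 gained one and 41 changed direction, and each change of direction was of a value that was not called. The cause was not tested except where fewer samples were fitted. Members called at 15 mm between HDB and acellular wounds went from 0 to 3 by DESeq2. Members called against normal skin went from 4 to 2 in acellular 15 mm wounds when only the groups compared were fitted, and from 2 in HDB 15 mm wounds to 4 by DESeq2, 4 with only the groups compared and 1 with the length trend removed with the replicate block. Genes called by DESeq2 were 17 at 10 mm (edgeR 0), 2174 at 15 mm (450), 424 over both sizes (0), 868 for the difference between sizes (0), 1049 and 563 between sizes in acellular and HDB wounds (0 and 0), and against normal skin 5058 for acellular 10 mm (3125), 3804 for HDB 10 mm (1895) and 2864 for HDB 15 mm wounds (796). At 15 mm the count was 199 without a filter, 695 at a mean of at least 50 counts, 0 with only the groups compared, 0 with the length trend removed, 179 with the replicate block, 0 with the block and the length trend removed and 257 with the block and the GC trend removed. With only the groups compared, 6196, 972, 2988 and 3401 genes separated acellular 10 mm, acellular 15 mm, HDB 10 mm and HDB 15 mm wounds from normal skin. The replicate block gave 1187 in HDB 10 mm (1187 with the length and 1232 with the GC trend removed) and 237 in HDB 15 mm wounds (277 and 300), and the numbers are not shown to pair samples. The block also brought Ly6a in HDB 10 mm wounds past the threshold (log2 -1.27, edgeR adjusted p = 0.0493) and took Lepr in acellular 10 mm wounds out of it (-1.12, edgeR adjusted p = 0.0548), and changed no other call of a member except, with the length trend removed, Nt5e in HDB 15 mm wounds (-0.74).

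Values that changed direction were Cd44 at 10 mm between HDB and acellular wounds (-0.058 and -0.027 with the length or GC trend removed, -0.0586 and -0.0306 with the block as well), Nt5e for the difference between sizes (-0.0159 by DESeq2, -0.0157 with relative log expression, -0.0251 at a mean of 50 counts), Thy1 for that difference (0.00305 with the block) and in acellular 10 mm wounds (0.00727 with the block, 0.019 with the GC trend removed too), and between sizes in acellular wounds Alcam (-0.00585 with the block and length trend removed), Cd44 (-0.12 with the length trend removed, -0.127 with the block) and Ly6a (-0.0263 with the block, -0.0341 with the GC trend removed too). When samples were left out in turn, direction changed within the ranges -0.24 to 0.0082 (Alcam, 10 mm), -0.16 to 0.18 (Cd44, 10 mm), -0.0344 to 0.28 (Lepr, both sizes), -0.14 to 0.13 (Nt5e) and -0.43 to 0.37 (Thy1) for the difference between sizes, -0.40 to 0.19 (Thy1, acellular 10 mm against normal), -0.14 to 0.45 (Thy1, acellular 15 mm against normal), between sizes in acellular wounds -0.0347 to 0.30 (Alcam), -0.11 to 0.15 (Cd44), -0.51 to 0.35 (Ly6a) and -0.13 to 0.67 (Thy1), and -0.044 to 0.49 (Thy1) in HDB wounds. Members called then ranged from 0 to 1 at 15 mm and over both sizes (1 without acellular 15 mm replicate 3), and against normal skin from 2 to 3 (acellular 10 mm), 3 to 4 (acellular 15 mm), 1 to 2 (HDB 10 mm) and 0 to 2 (HDB 15 mm). Genes called ranged from 0 (without any HDB 15 mm replicate) to 2322 (without acellular replicate 3) at 15 mm, 0 to 229 over both sizes, 0 to 1 for the difference, 800 to 1853 (acellular 10 mm), 2304 to 5805 (acellular 15 mm), 78 to 2725 (HDB 10 mm) and 34 to 1340 (HDB 15 mm) against normal skin, and 0 to 526 between sizes in acellular wounds. Each member had at least 11.9 CPM in every sample, and how depth limits the calls was not tested.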

Other observations

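Muscle, nerve and vessel wall genes were described by the same test beside the markers. Against normal skin, 20.3%, 30.2%, 12.3% and 5.18% of all genes were called in acellular 10 mm, acellular 15 mm, HDB 10 mm and HDB 15 mm wounds. Of 10 skeletal muscle genes, 1 was called lower in acellular 15 mm wounds (Myh1, which encodes a fast myosin, log2 -3.75, edgeR adjusted p = 0.0354) and none in the other wound groups, where 1 had an unadjusted p under 0.05 and DESeq2 called 1 in each. Their sum was 55361–67146 CPM in normal skin and 729–40914 CPM in the wounds. Of 8 smooth muscle and pericyte genes, 2 were called lower in each acellular group, 0 in HDB 10 mm (3 by unadjusted p, 2 by DESeq2) and 1 in HDB 15 mm wounds. Rgs5, a pericyte gene, was lower in both acellular groups (-2.55 and -1.91), and Notch3 was lower in HDB 15 mm wounds against normal skin (-0.60) and against acellular wounds (-0.76, edgeR adjusted p = 0.0252). The second call was lost without acellular replicate 1 (-0.69) or HDB replicate 1 (-0.80), 2 (-0.89) or 3 (-0.61), with only those groups fitted (-0.77) and with the length trend removed (-0.42, with or without the block). Of 8 Schwann cell and nerve genes, Mbp was lower (-1.51) and Ngfr, also an MSC marker, higher (1.27) in acellular 15 mm wounds.

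Of 10 macrophage genes, 7, 5, 4 and 0 were called lower than in normal skin in acellular 10 mm, acellular 15 mm, HDB 10 mm and HDB 15 mm wounds (in the last, 1 by unadjusted p and 1 by DESeq2). In these groups 20.3%, 30.2%, 12.3% and 5.18% of all genes were called in either direction. Cd163, a scavenger receptor of resident macrophages, fell most in the first 3 (-3.94, -2.56 and -3.47). Of 10 interferon-stimulated genes, Ifit3 was called lower in acellular 10 mm, acellular 15 mm and HDB 15 mm wounds (-1.95, -1.50 and -1.36), and no other was called.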
